A study of Homo sapiens with 12 samples.

Results

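The genes examined here encode the subunits of the oxidative phosphorylation complexes that are made from nuclear DNA. They were chosen by gene symbol alone: the NDUFA, NDUFB, NDUFC, NDUFS and NDUFV families, SDHA to SDHD, the UQCR family with CYC1, the nuclear cytochrome c oxidase subunits from COX4 to COX8 and the ATP5 family, with NDUFA4 left out. This gave 86 of the 25369 genes in the table: 36 of complex I, 4 of complex II, 11 of complex III, 16 of complex IV and 19 of complex V. The study grew 3 human carcinoma lines, RKO from colon and A549 and H460 from lung, in normoxia or in 1% O2 for 24 h, and sequenced poly(A)+ RNA from 2 replicates of each of the 6 groups, 12 libraries in all. No gene was edited and no drug was added in any group. RKO and A549 cells were kept in DMEM and H460 cells in RPMI, so line and medium cannot be told apart in any comparison of H460 with the others. The question addressed was how far the messenger RNAs of the respiratory machinery moved in low oxygen, and whether they moved alike in the 3 lines.

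Oxidative phosphorylation is the last stage of respiration. Complexes I and II take electrons from NADH and succinate, complex III passes them to cytochrome c, complex IV hands them to oxygen, and complex V, the ATP synthase, uses the proton gradient built on the way. Complexes I, III, IV and V are mosaics of nuclear and mitochondrial gene products, complex II is wholly nuclear, and in low oxygen cells are known to shift energy production from respiration to glycolysis.

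Libraries held between 27350424 and 41757584 counted reads, of which the 86 genes took 0.671% to 1.00%. The 4 marker genes of hypoxia exposure, CA9, NDRG1, VEGFA and PDK1, were higher in hypoxia in all 3 lines. The labelled tissues were only partly reflected in their markers. RKO libraries were under 1 CPM (read counts scaled to the size of the library) for CDH1, VIL1, CDH17 and LGALS4, but not for CDX2. The surfactant genes SFTPB and SFTPC were under 1 CPM in both lung lines. NAPSA reached 1 CPM in A549, NKX2-1 in H460 and KRT7 in all 3 lines. H460 was also under 1 CPM for EPCAM and CDH1, and the colon markers CDH17 and LGALS4 reached 1 CPM in A549. In such bulk libraries, a smaller share of cells with a transcript and less of it per cell cannot be told apart. Of the 86 genes, 77 passed the filter on low counts in every line. The other 9 (ATP5EP2, ATP5L2, COX4I2, COX6A2, COX7A1, COX7B2, COX8C, UQCRBP1 and UQCRHL) never exceeded 5 reads in a library, and 3 of them had no read at all. They are pseudogenes, retrocopies and isoforms known from muscle, lung or testis. The 13 subunit genes of mitochondrial DNA have no row in the table and were not analysed here.

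The promoters of 5 genes on which the results turn are shown, because these genes belong to the same machinery and yet moved in different directions. ATP5G1 and ATP5G2 encode the same mature protein, subunit c of the ATP synthase rotor, NDUFS6 is an accessory subunit of complex I, SDHA is the flavoprotein of complex II and COX6B2 is the testis form of a complex IV subunit. Each run gives 250 bases before and 20 bases from the RefSeq start, 5′ to 3′ on the gene's own strand (GRCh38.p14), and capitals mark every match to CACGTG (the E-box) or to ACGTG or GCGTG (the core of the hypoxia response element), read on both strands.
ATP5G1 (chr17:48892537-48892806, plus strand): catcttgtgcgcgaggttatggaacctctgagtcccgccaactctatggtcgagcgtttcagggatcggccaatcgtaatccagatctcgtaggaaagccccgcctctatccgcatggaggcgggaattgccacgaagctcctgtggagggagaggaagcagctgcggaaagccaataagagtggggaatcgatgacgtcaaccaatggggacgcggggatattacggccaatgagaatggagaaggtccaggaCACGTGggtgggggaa
ATP5G2 (chr12:53676064-53676333, minus strand): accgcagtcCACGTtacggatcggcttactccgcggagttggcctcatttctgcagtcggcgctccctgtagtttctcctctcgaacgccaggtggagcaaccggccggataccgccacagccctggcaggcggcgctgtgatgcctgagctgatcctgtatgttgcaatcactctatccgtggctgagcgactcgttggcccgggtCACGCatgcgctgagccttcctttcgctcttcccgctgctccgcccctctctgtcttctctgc
NDUFS6 (chr5:1801157-1801426, plus strand): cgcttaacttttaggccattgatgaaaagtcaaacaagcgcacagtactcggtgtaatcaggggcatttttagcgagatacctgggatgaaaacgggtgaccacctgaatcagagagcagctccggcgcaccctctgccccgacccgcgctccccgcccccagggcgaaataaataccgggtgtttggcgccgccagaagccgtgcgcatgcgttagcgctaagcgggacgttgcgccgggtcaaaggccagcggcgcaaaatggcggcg
SDHA (chr5:218070-218339, plus strand): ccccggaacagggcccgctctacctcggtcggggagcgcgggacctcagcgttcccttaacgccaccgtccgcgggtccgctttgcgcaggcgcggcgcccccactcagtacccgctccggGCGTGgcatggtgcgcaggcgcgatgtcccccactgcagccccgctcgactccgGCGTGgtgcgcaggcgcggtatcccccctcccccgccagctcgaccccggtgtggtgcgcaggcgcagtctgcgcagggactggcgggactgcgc
COX6B2 (chr19:55354700-55354969, minus strand): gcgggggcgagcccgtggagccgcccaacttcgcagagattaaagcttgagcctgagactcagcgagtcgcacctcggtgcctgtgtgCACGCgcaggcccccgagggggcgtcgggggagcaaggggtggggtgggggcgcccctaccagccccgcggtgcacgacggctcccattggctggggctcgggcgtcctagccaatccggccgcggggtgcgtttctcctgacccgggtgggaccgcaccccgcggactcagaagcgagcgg

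In these runs, ATP5G1 held an E-box at bases 255 to 260, just after the start, and since ACGTG lies inside CACGTG on both strands that stretch also counted as the core of the hypoxia response element. ATP5G2, SDHA and COX6B2 held the core alone, at 2, 2 and 1 places, and NDUFS6 held none of these letters. Promoters of 66 of the 86 genes, 63 of them tested, could be matched by symbol or synonym in a table of 27305 promoters of 300 bases. The letters CCGGAAG, bound by ETS factors such as GABPA, lay in 19 of the 63 tested genes (30.2%) and in 10.7% of all promoters. The palindrome of NRF1, a known regulator of respiratory genes, lay in 4 of 63 (6.35%) and in 1.36% of all promoters. The E-box lay in 7 of 63 (11.1%) against 7.43%, and the core of the hypoxia response element in 38 of 63 (60.3%) against 48.4%. Among matched genes called lower in at least 1 line, 8 of 22 held the ETS letters and 4 of 22 the E-box, against 11 of 40 and 3 of 40 among matched genes called in no line. For the core of the hypoxia response element these counts were 15 of 22 and 22 of 40, and for the NRF1 palindrome 2 of 22 and 2 of 40. These are matches of letters, given as a description without a test.

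In hypoxia the change was negative for 67 of the 77 tested subunit genes in RKO, 45 in A549 and 54 in H460, and most of these changes were small. Calls needed 2 things, a Benjamini-Hochberg adjusted p under 0.1 in edgeR's quasi-likelihood test and a fold change over 1.5. In RKO, 15 of the 77 tested genes were called lower (19.5%, beside 15.1% of all 12817 genes tested) and 1 higher (all genes 18.8%). In A549, none was called lower (all genes 0.456%), 2 had an unadjusted p under 0.05 in that direction, DESeq2 and limma called 0 as well, and 1 was called higher (all genes 2.22%). In H460, 25 were called lower (32.5%, beside 27.3% of all 14080 genes) and 1 higher (all genes 24.6%). The share called lower past the 1.5-fold limit thus lay within a few percentage points of the background in both RKO and H460. The share called higher, 1.30% in each, lay far below its background. Smaller declines were more frequent than the background: by adjusted p alone, 37 genes were lower in RKO (48.1%, all genes 22.9%) and 1 higher (all genes 24.0%), and 49 were lower in H460 (63.6%, all genes 39.7%) and 15 higher (all genes 38%). Precision moved with this contrast, and its part was not tested: the median standard error was 0.158 in RKO and 0.0901 in H460 for the subunit genes, against 0.184 and 0.114 for all genes. RKO had a median log2 fold change of −0.34 over the 77 genes (0.0073 over all genes), A549 −0.04 (all genes −0.0099) and H460 −0.29 (all genes −0.035). Scaling by library size alone moved the median H460 change of all genes by −0.35 on the log2 scale, and 9 of the 15 genes higher in H460 then had a negative change, 44 subunit genes were called lower, and all genes split into 40.9% lower and 14.7% higher.

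**Figure D1:**
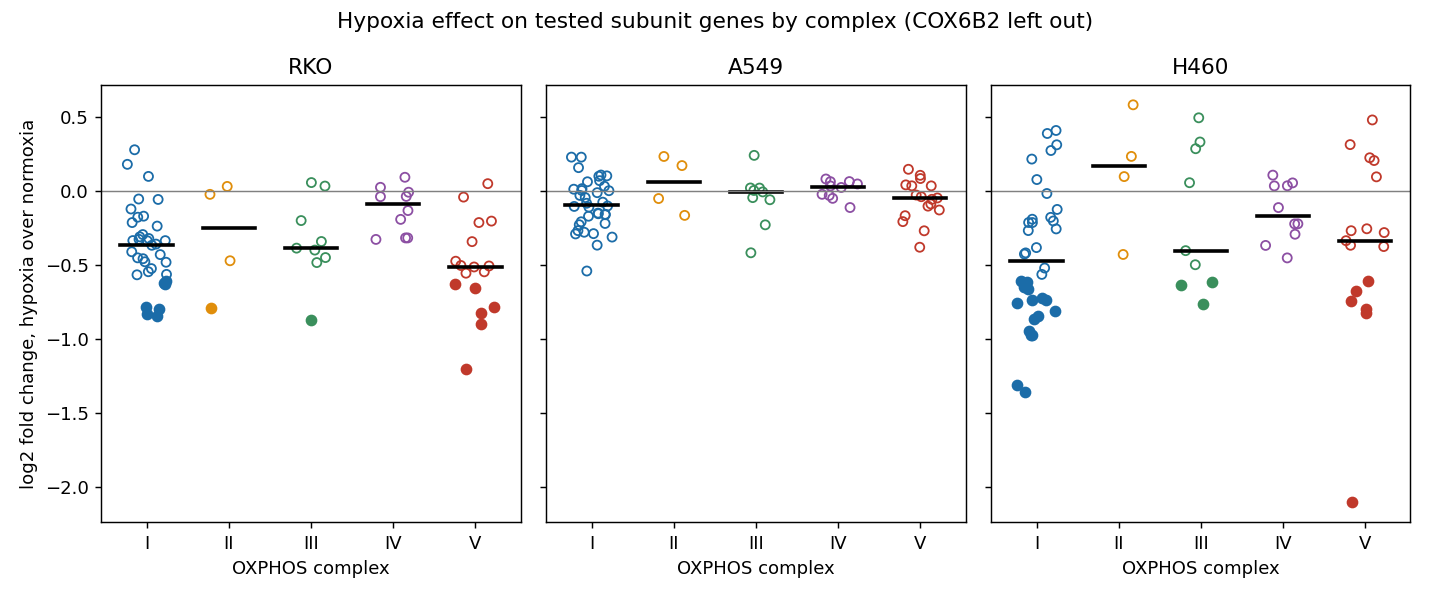
Log2 fold change of hypoxia over normoxia (vertical axis) for 76 tested subunit genes by complex, 1 panel per line; filled points are called genes, open points are not, and bars are medians. COX6B2 lies above the axis and is left out; complex V reaches furthest down in RKO and H460 (ATP5G1), complex IV stays close to 0 in RKO, and A549 has no filled point.

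Complex I, the NADH dehydrogenase, had 7 of 36 genes called lower in RKO (19.4%, beside 15.1% of all genes) and 16 of 36 in H460 (44.4%, beside 27.3%). NDUFS6, an accessory subunit at the matrix arm, had 53.1 and 49.7 CPM in RKO normoxia and 26.5 and 31.4 CPM in hypoxia. In H460 its level was 63.4 and 65.0 CPM in normoxia and 23.2 and 26.7 CPM in hypoxia, while the A549 libraries, with 40.4 and 34.0 against 35.3 and 25.7 CPM, overlapped. The log2 fold changes of NDUFS6 were −0.83 ± 0.17 (SE; adjusted p = 0.0035) in RKO, −0.29 ± 0.22 (adjusted p = 0.55) in A549 and −1.36 ± 0.10 (adjusted p = 2.2e-07) in H460. It had the lowest average effect of the complex and the groups stood apart in both RKO and H460. NDUFB9, a membrane arm subunit, fell from 230.3 and 230.4 to 119.9 and 147 CPM in RKO and from 112.5 and 108 to 53.4 and 58.5 CPM in H460. NDUFB9 also had the lowest A549 value of the complex, 117 and 100 against 85.0 and 64.2 CPM (log2 fold change −0.54 ± 0.19, adjusted p = 0.22). The hypoxia libraries of NDUFB9 lay below the normoxia ones in every line, although the A549 difference missed the threshold.

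NDUFC2, another membrane arm subunit, had 25.2 and 22.9 CPM in RKO normoxia, 12.01 and 19.7 in RKO hypoxia, 23.4 and 19.1 in H460 normoxia and 8.69 and 8.45 in H460 hypoxia. Its log2 fold change in H460 was −1.31 ± 0.14 (adjusted p = 3.9e-06), and in RKO it was −0.60 ± 0.24 (adjusted p = 0.066). The RKO call was lost under library-size scaling (−0.51, adjusted p = 0.14) and without hypoxia replicate 1 (−0.25, adjusted p = 0.36), and a read-through transcript to KCTD14 on the same strand can take reads from this gene. NDUFB10, NDUFB7, NDUFA12 and NDUFV3, all accessory subunits, were also lower in both RKO and H460, with log2 fold changes from −0.62 to −0.84 in RKO and from −0.62 to −0.95 in H460. Of these, NDUFV3 lost its H460 call with DESeq2 (−0.58), and NDUFA12 and NDUFV3 lost their RKO calls under library-size scaling and in the joint fit. NDUFB2, NDUFB6, NDUFB1, NDUFS5, NDUFA6, NDUFA11 and NDUFA13 were called lower in H460 only.

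The 7 nuclear core subunits, which carry the flavin and the iron-sulfur clusters, and the 29 accessory ones were counted apart, with no test between them. None of the 7 core genes was called in RKO (4 had an unadjusted p under 0.05, and edgeR, DESeq2 and limma called 0), beside 15.1% of all genes. In H460, 2 of 7 were (28.6%, beside 27.3% of all genes). Of the accessory genes, 7 of 29 were called lower in RKO (24.1%) and 14 of 29 in H460 (48.3%). The core genes called in H460 were NDUFS8 (log2 fold change −0.76 ± 0.09) and NDUFS3 (−0.66 ± 0.10). NDUFV1, which binds NADH, had 167 and 174 CPM in RKO normoxia and 174 and 154 in hypoxia, and NDUFS1 had 154 and 123 against 111 and 106 CPM. The accessory subunit NDUFB5 had the highest average effect of the complex, with 53.3 and 50.7 against 71.6 and 64.7 CPM in H460 (log2 fold change 0.39 ± 0.09, adjusted p = 0.0023). With library-size scaling the H460 change of NDUFB5 was 0.037.

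Complex V, the ATP synthase, had 6 of 17 tested genes called lower in RKO (35.3%, beside 15.1% of all genes). In H460 it also had 6 of 17 (35.3%, beside 27.3%). The largest decline of all subunit genes was that of ATP5G1 (chr17:46970148-46973232 on GRCh37), 1 of 3 genes for the proton-carrying subunit c. Its level was 88.1 and 85.5 CPM in RKO normoxia and 31.2 and 44.4 CPM in hypoxia. In H460 it was 117 and 106 CPM in normoxia and 25.7 and 26.3 CPM in hypoxia. The 2 conditions did not overlap in RKO or H460, and the drop in H460 exceeded 4-fold. In A549, normoxia had 167 and 105 CPM and hypoxia 125 and 83.6 CPM, and the spread between replicates was as large as the change. RKO gave a log2 fold change of −1.20 ± 0.19 (adjusted p = 9.0e-04), A549 −0.38 ± 0.26 (adjusted p = 0.51) and H460 −2.10 ± 0.09 (adjusted p = 5.5e-09).

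The second subunit c gene, ATP5G2, did not follow. It had 193 and 170 CPM against 188 and 165 CPM in RKO, 183 and 189 against 192 and 220 CPM in A549, and 222 and 215 against 320 and 291 CPM in H460. Its log2 fold changes were −0.04 ± 0.16, 0.15 ± 0.17 and 0.48 ± 0.09, and the last had an adjusted p of 4.6e-04 at a fold change below 1.5. With library-size scaling the H460 change was 0.13 (adjusted p = 0.16). The third, ATP5G3, fell like ATP5G1 but less, from 249 and 211 to 118 and 129 CPM in RKO (log2 fold change −0.90 ± 0.16, adjusted p = 0.0016) and from 208 and 187 to 129 and 130 CPM in H460 (−0.61 ± 0.09, adjusted p = 6.9e-05). With DESeq2 the H460 change of ATP5G3 was −0.58, just short of 1.5-fold. Per length, as RPKM (read count scaled to gene length and library size), the mix of the 3 genes therefore shifted. ATP5G1 made up 43.8% and 42.7% of the summed subunit c RPKM in H460 normoxia and 12.2% and 13.4% in hypoxia, and ATP5G2 rose from 41.7% and 43.4% to 76.4% and 74.4%. In RKO the ATP5G1 share was 38.1% and 40.7% in normoxia and 21.1% and 29.4% in hypoxia. The summed RPKM went from 463 and 440 to 282 and 275 in H460 and from 341 and 321 to 228 and 248 in RKO, with no overlap between conditions in either line.

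**Figure D2:**
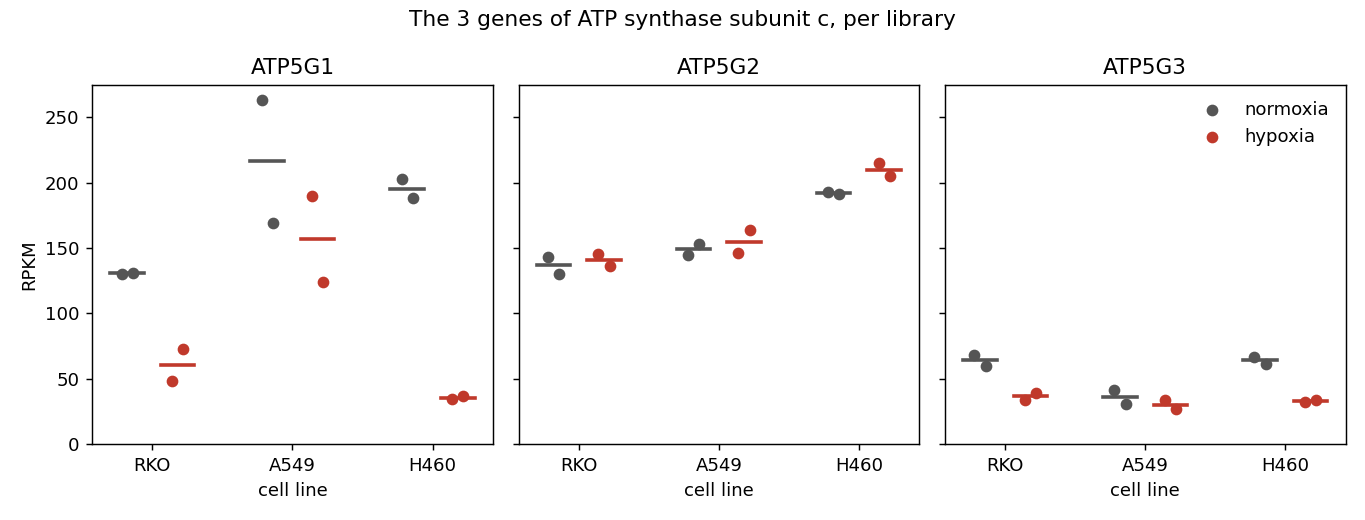
RPKM (vertical axis) of the 3 subunit c genes in each library by line; points are single libraries, bars are means of 2, grey is normoxia and red is hypoxia. ATP5G1 drops in RKO and H460, ATP5G3 drops less, and ATP5G2 does not drop in RKO; deposited RPKM carries no TMM scaling.

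The 5 subunits of the F1 head, where ATP is made, shared a direction in RKO but not in H460. In RKO, 5 of 5 were lower by adjusted p alone (all genes 22.9%), with log2 fold changes from −0.82 to −0.51. In H460, 3 were lower by adjusted p alone (all genes 39.7%) and ATP5E was higher, with changes from −0.79 to 0.23. With library-size scaling the 2 positive H460 changes turned negative. No test between these genes was run. ATP5D, subunit delta, was lower in both lines, with 88.0 and 84.4 against 47.9 and 49.4 CPM in RKO and 68.1 and 62.4 against 37.0 and 38.2 CPM in H460. Its log2 fold changes were −0.82 ± 0.15 (adjusted p = 0.0019) and −0.79 ± 0.09 (adjusted p = 9.6e-06). The catalytic subunit gene ATP5B changed by −0.55 ± 0.17 (adjusted p = 0.025) in RKO and by −0.25 ± 0.10 (adjusted p = 0.034) in H460, both below 1.5-fold. ATP5C1, the rotating subunit gamma, was called lower in RKO (−0.63 ± 0.17, adjusted p = 0.014), while in H460 its change was 0.10 ± 0.09 (adjusted p = 0.33) and turned to −0.26 with library-size scaling. Its RKO call was lost under that scaling (−0.54) and with limma. Of the membrane accessory genes, ATP5J2 fell from 188 and 173 to 101 and 129 CPM in RKO and from 111 and 104 to 59.2 and 62.6 CPM in H460. A read-through transcript to PTCD1 on the same strand can take reads from ATP5J2, and its RKO call was lost under library-size scaling. ATP5I was called lower in RKO only, and the peripheral stalk gene ATP5J in H460 only. ATP5S, which the naming rule took but which is not an established subunit, was also called lower in H460 only.

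Complex II, which also works in the citric acid cycle, gave a mixed picture. SDHD, a membrane anchor, had 95.8 and 80.3 CPM in RKO normoxia and 51.2 and 50.6 in hypoxia, and the groups stood apart. Its values overlapped between conditions in A549 (87.5 and 93.7 against 90.1 and 84.9 CPM) and in H460 (64.9 and 59.1 against 67.9 and 64.9 CPM). The log2 fold changes of SDHD were −0.79 ± 0.16 (adjusted p = 0.0031), −0.05 ± 0.17 (adjusted p = 0.91) and 0.10 ± 0.09 (adjusted p = 0.34), the last turning to −0.25 with library-size scaling. SDHA had 182 and 168 against 189 and 156 CPM in RKO, 117 and 103 against 132 and 127 CPM in A549, and 135 and 119 against 182 and 198 CPM in H460. The conditions did not overlap in A549 or H460, but the A549 change of 0.23 ± 0.17 missed the threshold (adjusted p = 0.52). The H460 change of SDHA was 0.58 ± 0.09 (adjusted p = 1.6e-04), a fold change of 1.499 that falls just short of the limit, and with DESeq2 or the replicate block it was called higher. With library-size scaling it was 0.23 (adjusted p = 0.041), and limma did not call it. Copies of SDHA elsewhere in the genome can cost it reads at the mapping-quality filter. SDHB, the iron-sulfur subunit, was lower by adjusted p alone in RKO (−0.47 ± 0.16, adjusted p = 0.037) and in H460 (−0.43 ± 0.09, adjusted p = 0.0014). SDHC, the other anchor, changed by 0.03, 0.17 and 0.24, the last with an adjusted p of 0.028 and turning to −0.12 with library-size scaling.

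**Figure D3:**
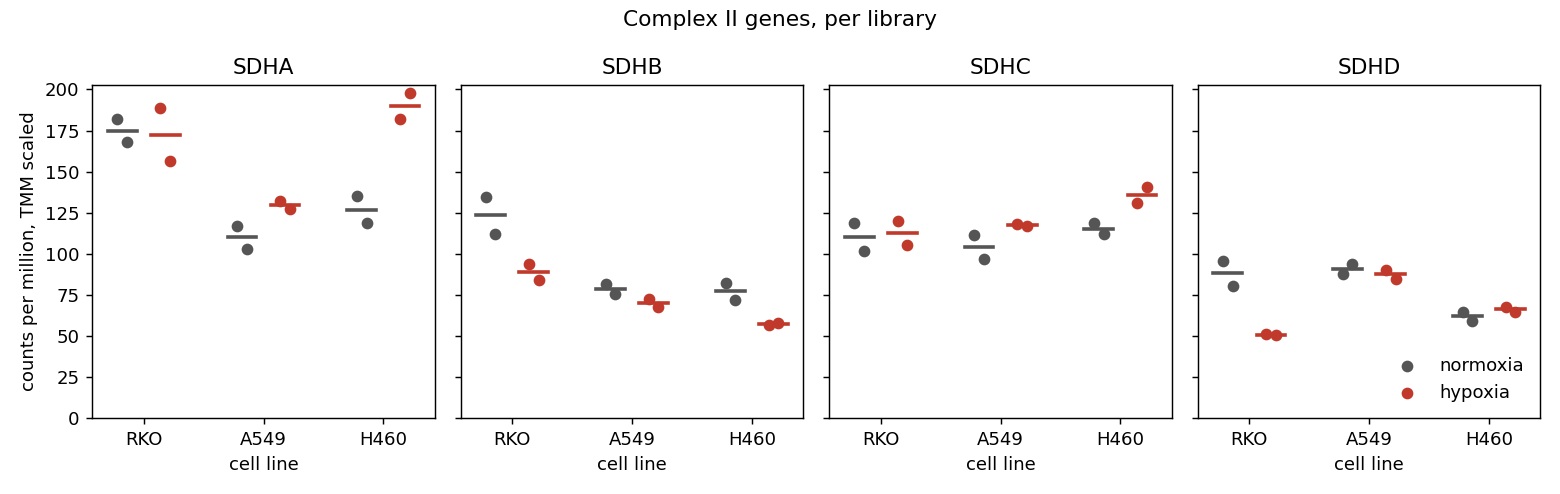
TMM-scaled CPM (vertical axis) of the 4 complex II genes in each library by line; points are single libraries, bars are means of 2, grey is normoxia and red is hypoxia. SDHD drops in RKO only, SDHA lies higher in hypoxia in H460, and SDHC stays near its normoxia level.

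In complex III, 1 of 9 tested genes was called lower in RKO (11.1%, beside 15.1% of all genes) and 3 in H460 (33.3%, beside 27.3%), shares near the background. UQCRFS1, the Rieske iron-sulfur protein, fell in RKO from 152 and 142 to 81.2 and 78.8 CPM (log2 fold change −0.87 ± 0.15, adjusted p = 0.0013). In H460 the same gene went from 76.4 and 70.7 to 56.4 and 54.9 CPM (−0.40 ± 0.09, adjusted p = 0.0014), below 1.5-fold. The 3 genes called in H460, UQCRQ, UQCR10 and UQCR11, encode small subunits, with log2 fold changes of −0.76, −0.61 and −0.63, and DESeq2 did not call UQCR10. The core proteins UQCRC1 and UQCRC2 did not share this course: by adjusted p alone they were higher in H460 (0.29 ± 0.09 and 0.33 ± 0.09), and their changes were 0.03 and 0.06 in RKO. UQCRB, which binds ubiquinone, had 265 and 221 against 223 and 200 CPM in RKO and 101 and 96.8 against 142 and 137 CPM in H460. Its log2 fold changes were −0.20 ± 0.16 (adjusted p = 0.36) and 0.50 ± 0.08 (adjusted p = 2.2e-04). With library-size scaling, 2 of the 3 complex III genes higher in H460 turned negative. CYC1, the cytochrome c1 that hands electrons to cytochrome c, changed by −0.48 ± 0.15, −0.42 ± 0.18 and −0.50 ± 0.09 in RKO, A549 and H460, and its A549 value had an unadjusted p of 0.042 and an adjusted p of 0.28.

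Complex IV moved little. None of its 10 ubiquitous subunit genes was called in any line by edgeR or DESeq2, and at an unadjusted p under 0.05 there were 0 in RKO, 0 in A549 and 5 lower in H460. Library-size scaling and limma on RPKM each called 3 of the 10 lower in H460. COX4I1, the regulatory subunit that is known to be exchanged for COX4I2 in low oxygen in some tissues, had 236 and 217 against 226 and 216 CPM in RKO, 288 and 247 against 264 and 253 CPM in A549, and 265 and 258 against 251 and 233 CPM in H460. Its log2 fold changes were −0.04 ± 0.15, −0.05 ± 0.17 and −0.11 ± 0.09. COX4I2 had 0 reads in 11 libraries and 2 reads in 1 A549 hypoxia library, so an exchange at the transcript level was not detectable at this depth. COX5A had the lowest average effect of the complex, with 136 and 110 against 102 and 98.8 CPM in H460 (−0.29 ± 0.10, adjusted p = 0.025). The copper-site and core subunits of this complex come from mitochondrial DNA and were not analysed here.

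COX6B2, the isoform of COX6B1 otherwise known from testis, was the only subunit gene called higher, and it was higher in all 3 lines (0.977% of 11873 genes tested in every line were). A549 expressed it already in normoxia, at 6.09 and 8.01 CPM, and reached 16.5 and 28.2 CPM in hypoxia. RKO had 10 and 12 reads in normoxia and 77 and 42 in hypoxia, and H460 had 1 and 7 reads in normoxia and 63 and 87 in hypoxia. Hypoxia libraries were above normoxia libraries in each line. The log2 fold changes were 2.34 ± 0.46 (adjusted p = 0.0029), 1.66 ± 0.30 (adjusted p = 0.036) and 4.42 ± 0.45 (adjusted p = 3.2e-06) in RKO, A549 and H460. The H460 ratio rests on 8 normoxia reads, and pooled reads gave 22.0 with an exact 95% binomial interval of 10.9 to 52.0, which covers counting error only. Even after this rise, COX6B2 stayed below 3 CPM in RKO and H460. In RKO and H460, where normoxia libraries lay below 0.5 CPM, COX6B2 passed the filter on low counts only through its hypoxia libraries. Leaving out a hypoxia library of either line therefore removed COX6B2 from the test, so those fits cannot show whether its call holds. limma on log2(RPKM + 1) did not call the A549 rise (1.35, adjusted p = 0.13).

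Across the lines, 11 genes were called lower in both RKO and H460 (14.3% of 77, beside 9.21% of 11873 genes): ATP5D, ATP5G1, ATP5G3, ATP5J2, NDUFA12, NDUFB10, NDUFB7, NDUFB9, NDUFC2, NDUFS6 and NDUFV3. DESeq2 and library-size scaling gave 9 each. In all 3 lines together 0 were lower, by edgeR, DESeq2 or limma (all genes 0.109%). A further 4 were lower in RKO alone and 14 in H460 alone, and 47 were called in no line. No gene was called in opposite directions by edgeR, DESeq2 or limma (all genes 2.86%). By adjusted p alone 3 were lower in RKO and higher in H460, namely ATP5E, an F1 subunit gene with a read-through partner on its strand, ATP5SL, which is not an established subunit, and NDUFA10. ATP5E had 69.9 and 57.7 against 41.3 and 46.1 CPM in RKO and 115 and 104 against 128 and 128 CPM in H460. NDUFA10 had 115 and 109 against 90.5 and 86.8 CPM in RKO and 103 and 107 against 129 and 125 CPM in H460. In both genes the conditions stood apart in RKO and in H460, in opposite order, and overlapped in A549. With library-size scaling the opposite direction was lost, since the H460 changes were then −0.13 for ATP5E, −0.078 for NDUFA10 and −0.038 for ATP5SL. The comparisons use separate libraries for each line, and over 76 genes without COX6B2 Pearson's r of the log2 fold changes was 0.598 between RKO and H460, 0.502 between RKO and A549 and 0.632 between H460 and A549, given as a description because genes are not independent.

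**Figure D4:**
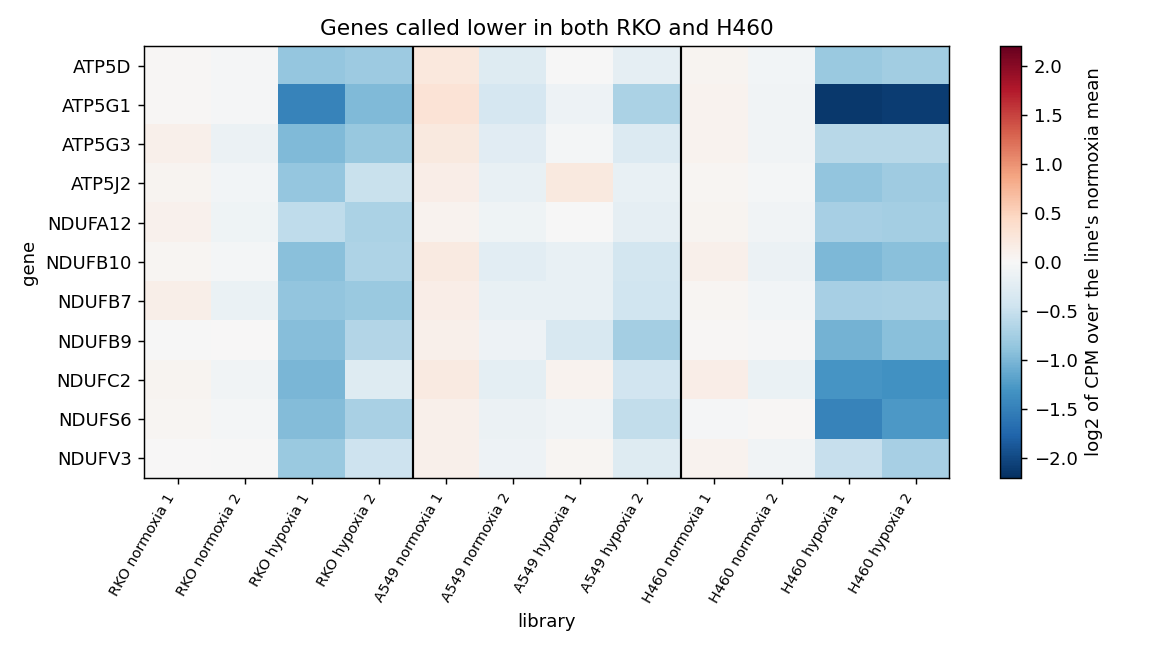
Colour gives log2 of the CPM over the normoxia mean of the same line for the 11 genes called lower in both RKO and H460 (rows) in the 12 libraries (columns). All hypoxia libraries of RKO and H460 lie below 0, from −0.29 to −1.48 in RKO and −0.51 to −2.12 in H460, and those of A549 span −0.76 to 0.21.

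**Figure D5:**
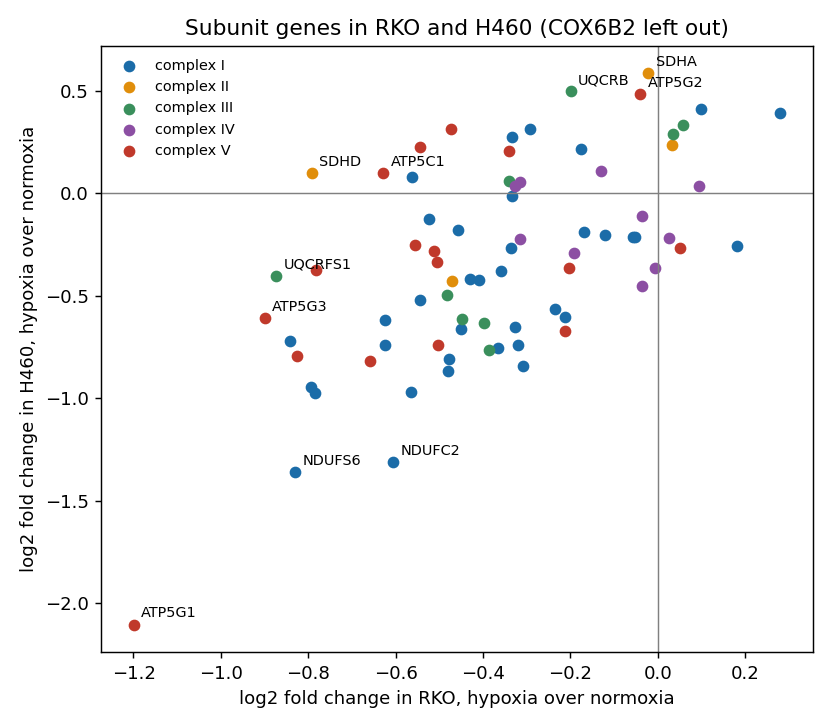
Log2 fold change of hypoxia over normoxia in RKO (horizontal axis) and H460 (vertical axis) for 76 tested subunit genes, coloured by complex. ATP5G1 lies lowest in both lines, and SDHD, ATP5C1 and UQCRB have a negative RKO value beside a positive H460 value, which for SDHD and ATP5C1 turns negative with library-size scaling.

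Whether the hypoxia effect itself differed between lines was tested in a joint edgeR fit of all 12 libraries. It differed for 30 of 77 genes (39.0%, beside 48.8% of 15595 genes), 13 of them in complex I, 2 in complex II, 4 in complex III, 2 in complex IV and 9 in complex V. All 13 in complex I were accessory subunits. The effect was lower in H460 than in A549 for 14 genes (all genes 17.4%) and higher for COX6B2 (all genes 15.5%), while limma on RPKM gave 31 and 0. It was lower in RKO than in A549 for 9 genes (all genes 5.10%) and higher for 0 (all genes 8.89%; 0 at an unadjusted p under 0.05, and 0 by DESeq2 and limma, which on RPKM also called 0 lower). It was lower in RKO than in H460 for 7 genes, COX6B2 among them (all genes 14.4%), and higher for ATP5G1 (all genes 19.9%). That balance turned with limma on RPKM, which called 0 lower and 25 higher, and at an unadjusted p under 0.05 there were 12 in each direction. Fewer genes differed when an H460 library was left out, down to 10 without hypoxia replicate 1. The average effect over the lines was lower for 6 genes, ATP5G1, NDUFB10, NDUFB7, NDUFB9, NDUFC2 and NDUFS6 (all genes 11.5%), and higher for COX6B2 (all genes 14.8%). A549 had the widest spread between replicates, with a biological coefficient of variation of 18.9% against 15.0% in RKO and 7.91% in H460, so small effects were harder to detect there.

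Summed over the genes of a complex, the CPM in hypoxia relative to normoxia was 0.786, 0.936 and 0.812 for complex I in RKO, A549 and H460, and 0.699, 0.921 and 0.850 for complex V. For complex III it was 0.826, 0.951 and 1.01, for complex IV 0.937, 1.01 and 0.917, and for complex II 0.856, 1.06 and 1.18. These sums depend on TMM scaling, above all in H460. There the median log2 fold change of the 4 complex II genes was 0.17 with TMM and −0.18 with library-size scaling. The sums of complex V were 3940 and 3416 CPM in RKO normoxia and 2637 and 2506 in hypoxia, a gap wider than the distance between replicates. In A549 they were 2978 and 2637 against 2750 and 2420 CPM and overlapped. The RKO sums were weighted towards ATP5B and ATP5A1, neither of them called, with means of 989 and 757 CPM in normoxia and 673 and 531 CPM in hypoxia.

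Levels differed widely within a complex already in normoxia. As RPKM, the mean in H460 ran from 9.70 ± 1.24 (SD, n = 2) for NDUFC2 to 268 ± 3.24 for NDUFA1 in complex I and from 132 ± 5.81 for COX7A2 to 675 ± 21.2 for COX7C among the ubiquitous genes of complex IV. ATP5B was the most abundant gene of complex V in each line, at 521 ± 33.1, 543 ± 26.5 and 763 ± 35.1 RPKM in RKO, A549 and H460. The least abundant tested gene was ATP5S, which is not an established subunit. Complex II spanned a narrower range than the other complexes in each line, from 44.3 ± 2.28 for SDHD to 76.1 ± 6.06 RPKM for SDHB in H460. Between lines in normoxia, RKO was below A549 for 12 genes and above it for 21 (all genes 34.1% and 26.0%). RKO was below H460 for 15 and above for 9 (all genes 34.7% and 27.2%), and A549 was below H460 for 16 and above for 7 (all genes 25.2% and 26.9%). COX6B2 was lower in RKO than in A549 and higher in A549 than in H460.

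Genes that build and supply the complexes were read from lists. Of 46 assembly factors, 24 were called lower in RKO (52.2%, all genes 15.1%) and 27 in H460 (58.7%, all genes 27.3%), and edgeR called 0 in A549 (all genes 0.456%), where 6 had an unadjusted p under 0.05 and no other tool was run. Their median log2 fold changes were −0.64, −0.20 and −0.71 in RKO, A549 and H460. BCS1L, which inserts the Rieske protein into complex III, had 38.4 and 47.4 against 16.2 and 24.3 CPM in RKO and 41.6 and 43.5 against 6.85 and 8.86 CPM in H460 (log2 fold change −2.43 ± 0.13). NDUFAF4, a complex I assembly factor, had 35.6 and 33.7 against 9.01 and 15.2 CPM in RKO and 24.0 and 22.4 against 6.28 and 6.57 CPM in H460. SCO1, a copper chaperone of complex IV, changed by −1.05 ± 0.16 in RKO and −1.27 ± 0.09 in H460. Of 15 electron carrier genes, 3 were lower in RKO (20%, all genes 15.1%) and 5 in H460 (33.3%, all genes 27.3%), shares near the background, with 1 and 2 higher (COQ10A in RKO, PDSS2 and COQ10B in H460). Cytochrome c itself, CYCS, had 287 and 255 against 134 and 147 CPM in RKO and 263 and 241 against 130 and 132 CPM in H460.

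Of 16 regulators of mitochondrial gene expression, RKO had 8 of 14 tested called lower (57.1%, all genes 15.1%), A549 had 1 (6.25%, all genes 0.456%) and H460 had 6 (37.5%, all genes 27.3%), with 2 higher. PPARGC1A, another coactivator, was the gene called lower in A549 (−1.36 ± 0.33, adjusted p = 0.095) and was called higher in H460 (1.45 ± 0.10, adjusted p = 1.7e-07). PPARGC1B, a coactivator of respiratory genes, had 28.7 and 30.9 CPM in H460 normoxia and 2.34 and 3.16 in hypoxia (log2 fold change −3.43 ± 0.15), and in RKO 33.2 and 46.4 against 17.7 and 20.9 CPM (−1.05 ± 0.20). TFAM, which packages and transcribes mitochondrial DNA, changed by −0.77 ± 0.16 in RKO, −0.40 ± 0.19 in A549 (adjusted p = 0.33) and −1.09 ± 0.10 in H460. The last list held 8 genes outside the naming rule, not all of them established subunits. In RKO 3 were lower (NDUFAB1, USMG5 and HIGD1A, 37.5%, all genes 15.1%), and in H460 2 were (NDUFAB1 and HIGD1A, 25%, all genes 27.3%). In each of these lines 1 was higher (all genes 18.8% and 24.6%). NDUFA4L2, known as a hypoxia-induced relative of NDUFA4, had 6.77 and 5.22 against 70.3 and 88.2 CPM in H460 (log2 fold change 3.73 ± 0.15). It was also called higher in RKO (1.21 ± 0.39, adjusted p = 0.031), at 0.58 and 0.74 against 1.69 and 1.38 CPM. A549 showed no call.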

How the data were processed

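Poly(A)+ RNA-seq counts of 12 libraries were analysed. Per the labels and the study's methods, the authors trimmed reads, aligned them with TopHat2 2.0.13 to GRCh37/hg19, removed alignments of low mapping quality, which costs genes with close copies or pseudogenes reads, and counted exon reads on the reverse strand with HTSeq 0.6.1. The deposited counts per gene were used for all main fits, and the deposited RPKM, which equals count per length and summed counts, for per-length levels and as an alternative. Symbol, position, strand and length columns were read as annotation.

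Each line was fitted on its 4 libraries with edgeR 4.0.16 in R 4.3.3, by its quasi-likelihood test after TMM scaling, for genes over 0.5 CPM in at least 2 libraries, and adjusted p values are edgeR's, over all genes tested, unless another tool is named. CPM values are TMM-scaled. Differences between lines came from 1 joint fit of all libraries. The script was tested on simulated data. DESeq2 1.42.0, limma 3.58.1 on log2(RPKM + 1) and log2(RPKM + 0.1), other scalings, filters, thresholds, a replicate block and leaving out each library were alternatives. The study describes its RNA-seq replicates as biological duplicates; with 2 libraries a group, p values rest on little replication. Same-numbered libraries deviated together (correlation 0.363, 0.382 and 0.158 in RKO, A549 and H460), but with 2 pairs a line and no shared batch in the labels they were not treated as pairs.

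The genes, lists and tests were chosen with earlier results of these data known. Genes named with values follow a rule: lowest and highest average effect of each complex (mean count at least 100), genes called in the same direction in 2 lines, the 5 smallest adjusted p values of the difference between lines, and 11 genes fixed by name. Others were named after their values were seen. Promoters came from RefSeq (GRCh38.p14) and gene positions from the file (GRCh37).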

Additional observations from a re-analysis of the deposited data

Results flagged for a closer look

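The hypoxia effect differed between lines for 30 of 77 subunit genes in the joint fit, beside 48.8% of all 15595 genes. For the genes described above, the widest pairwise difference is given on the log2 scale, with its adjusted p from edgeR.

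Between A549 and H460, the effect was higher in A549 by 1.72 for ATP5G1 (adjusted p = 0.0016), 1.16 for NDUFC2 (adjusted p = 0.019), 1.07 for NDUFS6 (adjusted p = 0.0047), 0.97 for NDUFB2 (adjusted p = 0.0034) and 0.85 for ATP5J2 (adjusted p = 0.013). It was also higher in A549 by 0.69 for ATP5D (adjusted p = 0.034), 0.67 for NDUFB10 (adjusted p = 0.043) and 0.64 for NDUFA12 (adjusted p = 0.034). The A549 minus H460 value of COX6B2 was −2.76 (adjusted p = 0.0077), which rests on 8 normoxia reads in H460.

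The RKO minus H460 value was −0.85 for SDHD (adjusted p = 0.0042), −0.65 for UQCRB (adjusted p = 0.017) and −0.56 for SDHA (adjusted p = 0.045). With library-size scaling, the separate changes in RKO and H460 were −0.71 and −0.25 for SDHD and −0.12 and 0.14 for UQCRB. For SDHA they were 0.06 and 0.23. The RKO minus A549 value was −0.60 for UQCRFS1 (adjusted p = 0.091) and −0.69 for ATP5G3 (adjusted p = 0.075). In each pair of lines, limma on RPKM, which has no TMM scaling, called 0 subunit genes lower. H460 was grown in another medium than RKO and A549, so line and medium cannot be told apart.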

How the results depend on the processing

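Of the values of called genes that the naming rule took, 327 kept their direction and call under the alternatives and 31 kept their direction but lost the call. Among all 77 genes, 17 with a positive change in H460 and 20 in A549 turned negative with library size alone. Subunit genes lower in H460 rose from 25 to 44 under that scaling, while the share of all genes called lower there rose from 27.3% to 40.9%. The median H460 change of the subunit genes went from −0.29 to −0.64, and that of all genes shifted by −0.35. Subunit genes with a lower average effect went from 6 to 15 and those differing between lines from 30 to 47. limma on RPKM, which has no TMM scaling, gave 44 lower in H460 with a median of −0.63 or −0.64, 14 with a lower average effect and 53 or 54 differing, and with a pseudocount of 1 it called 0 higher in A549. By adjusted p alone, 37 were lower in RKO, 49 lower and 15 higher in H460, and 41 lower and 7 higher on average. With a fold change over 2, 1 was lower in RKO, 3 in H460 and 1 on average, and with an adjusted p under 0.05, 19 differed between lines. A filter of 5 CPM removed COX6B2, leaving 0 higher in RKO and 0 in H460, where the median became −0.35. RLE factors, no filter, DESeq2 and the joint fit each gave 2 higher in H460, the added gene being SDHA with DESeq2.

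With replicate number as a block, 2 were higher in H460 and 45 differed between lines. Subunit genes with a lower call stayed at 15 for RKO, 0 for A549 and 25 for H460. The background in A549 did not stay: over all genes the block gave 5.07% lower and 8.34% higher, against 0.456% and 2.22% without it. The shares of all genes lower were 16% for RKO and 27.4% for H460, against 15.1% and 27.3% without it. The replicate numbers mark no shared batch in the labels.

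Leaving out 1 library gave 12 to 24 lower and 0 to 1 higher in RKO (24 without normoxia replicate 2, with a median of −0.46), 0 to 2 lower in A549 (2 without hypoxia replicate 1) and 21 to 28 lower and 0 to 2 higher in H460. The medians ran from −0.27 to −0.39 in H460 and from −0.12 to 0.065 in A549, where leaving out normoxia replicate 1 or hypoxia replicate 2 turned the sign. The number differing ran from 10 to 38, with 10 without H460 hypoxia replicate 1, 14 without H460 normoxia replicate 2 and 17 without either of the other H460 libraries. A group left with 1 library was assumed to vary like the others. In the separate fits of RKO and H460, COX6B2 was not tested when a hypoxia library was left out, because it then failed the filter. With 2 libraries a group, and a median standard error of 0.178 for the subunit genes in A549 against 0.0901 in H460, small effects were less detectable in A549.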
